A study of Mus musculus with 9 samples.

Results

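Necab1, Ptgds and Gm37206 were examined because earlier results of these data placed them among the genes that differed from wild type in both Ms4a knockout lines. They were selected on the difference in level between each knockout and wild type. They are 3 of the 55291 genes in the deposited table, and all 3 passed the filter of at least 10 counts summed over all mice, which 23225 genes passed. RNA of the main olfactory epithelium, the sensory tissue of the nose, had been sequenced from 9 mice of 8 to 12 weeks. All 9 were C57BL/6: 3 wild type, 3 Ms4a6c-/- and 3 Ms4a cluster-/-. The wild-type mice are described as littermate controls, without stating of which line. The Ms4a6c knockout came from a mouse repository and was made by homologous recombination, and the Ms4a cluster knockout, which lacks the whole family, was made with CRISPR/Cas9. Each genotype is therefore a single line made by its own method, and no mouse received a treatment. The same 3 wild-type mice served both knockouts, so that the comparisons with wild type share their control samples.

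Necab1 encodes an EF-hand protein, one of 3 related cytoplasmic proteins that bind calcium and are known mainly from neurons. Ptgds encodes the lipocalin-type prostaglandin D synthase, a secreted protein of the lipocalin fold that turns prostaglandin H2 into prostaglandin D2 and also carries small lipophilic molecules. It is known as an abundant product of the meninges, of glia and of the choroid plexus. Prostaglandin D2 acts through the receptors encoded by Ptgdr and Ptgdr2. Gm37206 is a predicted gene of unknown function. Its GENCODE class, TEC, holds single-exon models that await experimental proof.

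The members lie on different chromosomes. In the annotation of mouse genome build GRCm38, Necab1 runs on the minus strand at chr4:14952245-15149794, Ptgds on the minus strand at chr2:25466709-25470046, and Gm37206 on the minus strand at chr19:4762103-4765171. Chromosome 19 also carries the Ms4a genes, the first of which starts at position 10962293, or 6.2 Mb from the end of Gm37206. Ms4a6c itself is at chr19:11469366-11482192.

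The first 120 bases of the Gm37206 transcript are shown because the gene has no other identity than its sequence. They lie at chr19:4765052-4765171 of GRCm38, on the minus strand, where the only exon on the plus strand belongs to an intron-retaining transcript of Rbm4b. No base is set in capitals.
Gm37206, transcript bases from the start: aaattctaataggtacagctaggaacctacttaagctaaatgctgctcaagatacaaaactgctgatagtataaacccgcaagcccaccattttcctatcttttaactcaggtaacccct
The promoter of Ptgds is shown because this gene was higher in both knockouts. It was the 1 member that matched the RefSeq promoter set, at chr2:25469700-25469999 of GRCm38.p6 on the minus strand. This window is set on the RefSeq start, and all of it lies inside the longer GENCODE gene given above, whose first base is at 25470046. The capitals mark the letters TGACTCA, the usual form of an AP-1 site.
Ptgds, promoter: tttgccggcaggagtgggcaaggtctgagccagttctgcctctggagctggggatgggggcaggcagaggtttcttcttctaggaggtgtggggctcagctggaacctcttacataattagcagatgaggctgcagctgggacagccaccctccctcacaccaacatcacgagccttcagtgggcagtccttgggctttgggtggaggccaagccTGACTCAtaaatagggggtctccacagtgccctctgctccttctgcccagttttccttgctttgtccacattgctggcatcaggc
The motif was chosen after this sequence had been read. Counting both strands, TGACTCA or TGAGTCA occurred in 5.17% of 27025 promoters of this length. The clock E-box CACGTG, which reads the same on both strands, occurred in 7.24% of them and was not among the letters of this window. These matches describe letters and not bound factors.

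The labels and the libraries were checked first. Ms4a6c had between 53.95 and 90.34 expected counts in the 3 wild-type mice, 0, 2.35 and 2 in Ms4a6c knockout mice 1 to 3, and 0 in every Ms4a cluster knockout mouse. The tissue label was met by Omp, a marker of mature olfactory sensory neurons, at 4018 CPM or more in every mouse. CPM here means the count relative to a library size scaled by TMM, which corrects for differences in library composition. Expected counts summed to between 13954591 and 21987174 per mouse. Wild type 1 and Ms4a cluster knockout 2 stood apart: Bpifb9b, a nasal gland transcript, took 10.4% and 10.2% of their counts, against at most 3.28% for the leading gene elsewhere. They are called gland-rich below for this transcript, and the nasal gland list used below was not high in them. Ms4a cluster knockout 2 also held the most olfactory bulb neuron transcripts, with Gad1 at 37.9 CPM against at most 7.34 CPM in the other mice. Xist was at 247 CPM or more in 5 mice and at or under 2.61 CPM in the other 4, with both kinds in every genotype.

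Necab1 was lower in both knockouts. Its level was 67.9, 74.2 and 75.4 CPM in wild-type mice 1 to 3. It was 54, 50.9 and 47.7 CPM in the Ms4a6c knockout mice and 58.1, 51.6 and 53.6 CPM in the Ms4a cluster knockout mice. The lowest wild-type mouse lay above the highest knockout mouse, and the knockout lines overlapped each other. Group means were 72.5 ± 4.03 CPM in wild type, 50.9 ± 3.15 CPM in the Ms4a6c knockout and 54.5 ± 3.32 CPM in the Ms4a cluster knockout (SD, n = 3 each). In the edgeR fit the log2 difference from wild type was -0.51 (SE 0.071) in the Ms4a6c knockout, or 29.8% lower, given as a description because this contrast chose the gene. It was -0.41 (SE 0.071) in the Ms4a cluster knockout, or 24.8% lower. The levels thus fell in the order of wild type, then Ms4a cluster knockout, then Ms4a6c knockout, and the last pair did not differ beyond their spread.

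Ptgds was higher in both knockouts. It stood at 129, 145 and 118 CPM in wild-type mice 1 to 3, at 206, 194 and 189 CPM in the Ms4a6c knockout mice, and at 169, 194 and 177 CPM in the Ms4a cluster knockout mice. All 6 knockout mice were above all wild-type mice, and again the knockout lines overlapped. Group means were 130.9 ± 13.7 CPM in wild type, 196 ± 8.94 CPM in the Ms4a6c knockout and 179.9 ± 12.8 CPM in the Ms4a cluster knockout (SD, n = 3 each). As a description, the log2 difference from wild type was 0.59 (SE 0.084) in the Ms4a6c knockout, a 1.5-fold level, and 0.46 (SE 0.084) in the Ms4a cluster knockout, a 1.37-fold level. The order was Ms4a6c knockout, Ms4a cluster knockout and wild type, the reverse of that of Necab1. In whole tissue, more cells of a type and more RNA per cell cannot be told apart.

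Gm37206 had 0 expected counts in each wild-type mouse. It had 12.09, 22.52 and 17.71 expected counts in Ms4a6c knockout mice 1 to 3 and 22.76, 13.22 and 14.78 in Ms4a cluster knockout mice 1 to 3. On the CPM scale these were 0.492, 1.43 and 1.15 in the Ms4a6c knockout and 1.15, 1.3 and 0.752 in the Ms4a cluster knockout. Every knockout mouse was above the limit of 3 counts, which in a wild-type mouse came to between 0.166 and 0.213 CPM. Against the mean of this limit over the wild-type libraries, 0.183 CPM, the group mean was at least 5.57-fold higher in the Ms4a6c knockout and at least 5.81-fold higher in the Ms4a cluster knockout. These folds are of means and do not bound each mouse, since Ms4a6c knockout 1 was at 0.492 CPM. Gm37206 was chosen for this difference, so they are a description. Per kilobase of annotated exon, group means in the Ms4a6c knockout were 0.333 CPM for Gm37206, 9.71 CPM for Necab1 and 119 CPM for Ptgds, so that Gm37206 was by far the lowest of the 3.

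**Figure D1:**
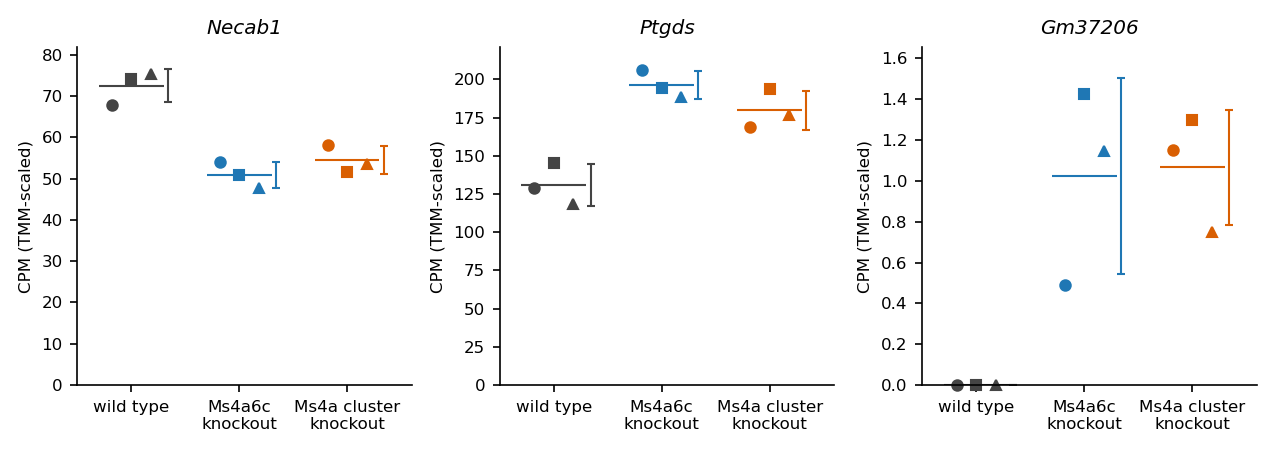
Levels of Necab1, Ptgds and Gm37206 in each mouse (vertical axes, TMM-scaled CPM, from 0) by genotype (circle, square and triangle for mice 1 to 3). Horizontal lines are group means and the bars at their right are 1 SD; in each panel the 6 knockout mice lie on one side of the 3 wild-type mice.

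The values by mouse show the same separation for all 3 genes, which is what the choice of the genes required. Among all 23225 tested genes, 1.68% had all 6 knockout mice above all wild-type mice and 1.56% had them below. By the quasi-likelihood test of edgeR, adjusted over all tested genes, all 3 members were called in the Ms4a6c knockout, with an adjusted p of 0.0109 for Necab1, 0.0125 for Ptgds and 0.0255 for Gm37206, where 0.435% of genes were called. In the Ms4a cluster knockout 0 of 3 were called by edgeR, with an adjusted p of 0.321, 0.476 and 0.234, where 0.0258% of genes were called. Unadjusted edgeR p-values under 0.05 were found for all 3 in either line, against 10.5% of genes in Ms4a6c knockout mice and 4.93% in Ms4a cluster knockout mice. DESeq2, the tool of the study's own methods, called all 3 in both lines, against 1.95% of 17731 genes in the Ms4a6c knockout and 0.0826% of 21780 genes in the Ms4a cluster knockout. These contrasts chose the members, so the calls are listed and nothing is read from them.

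The edgeR calls of the members in the Ms4a6c knockout depended on single mice. Without wild type 3, Ms4a6c knockout 2 or Ms4a6c knockout 3 none of the 3 members was called, with an adjusted p between 0.0502 and 0.102, and without wild type 2 only Ptgds was. The call of Gm37206 was also lost with 2 genotypes fitted alone (edgeR adjusted p = 0.0839) and with Xist as a covariate (0.0669). The differences themselves lay between -0.56 and -0.47 for Necab1 and between 0.52 and 0.67 for Ptgds on the log2 scale. Their sign was all but fixed beforehand, since every knockout mouse lay on one side of all wild-type mice, so nothing is read from it. Without both gland-rich libraries, wild type 1 and Ms4a cluster knockout 2, the log2 difference from wild type in the Ms4a6c knockout was -0.55 for Necab1 and 0.58 for Ptgds, and in the Ms4a cluster knockout it was -0.42 and 0.39. In that reduced set edgeR again called all 3 members in the Ms4a6c knockout and none in the Ms4a cluster knockout.

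DESeq2 called 6 genes in both knockouts, and the members were 3 of them. The others were Ms4a6c, Gm45837 and the odorant receptor gene Olfr392. Olfr392 was the nearest inside the threshold: it averaged 7.42 CPM in wild type, 4.61 CPM in the Ms4a6c knockout and 3.73 CPM in the Ms4a cluster knockout, and the larger of its DESeq2 adjusted p-values was 0.0445. Just outside were Olfr1323, at 5.49, 3.28 and 2.82 CPM in the same order, and Gm50388, at 0.527, 2.09 and 3.2 CPM, a gene that lies on chromosome 19 near Gm37206. The counts of Gm45837 were irregular, being 0 in the wild type, 158.47 in 1 Ms4a6c knockout mouse and 0 in the other 2, and 180.6, 0 and 41 in the Ms4a cluster knockout mice. Unlike Gm45837, each member was on one side in every knockout mouse.

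The knockout lines were then compared with each other. The rule that chose the members did not name this contrast, but it is not independent of the choice. Keeping genes in which both lines differ from the same wild-type mice can favor lines that lie close together. Necab1 was 0.1 higher on the log2 scale in the Ms4a cluster knockout than in the Ms4a6c knockout (SE 0.071, 95% interval -0.06 to 0.26, edgeR adjusted p = 0.707). Ptgds was lower in the Ms4a cluster knockout by the same comparison, with a log2 difference of -0.13 (SE 0.083, 95% interval -0.31 to 0.06, edgeR adjusted p = 0.675). The log2 difference of Gm37206 was 0.07 (SE 0.48, 95% interval -1.03 to 1.16, edgeR adjusted p = 0.983). For Necab1 the interval spans a level from 4.03% lower to 19.5% higher and for Ptgds from 19.5% lower to 4.1% higher, whereas for Gm37206 it runs from 51.1% lower to 124% higher. No member passed the threshold by edgeR, by DESeq2 or at an unadjusted p of 0.05, where edgeR called 0.443% of all genes, DESeq2 called 1.3%, and 9.38% had an unadjusted p under 0.05. The mice of the knockout lines overlapped for every member, and over all genes they did not overlap in 16.0%. Because of the choice, no likeness of the lines is read from this.

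**Figure D2:**
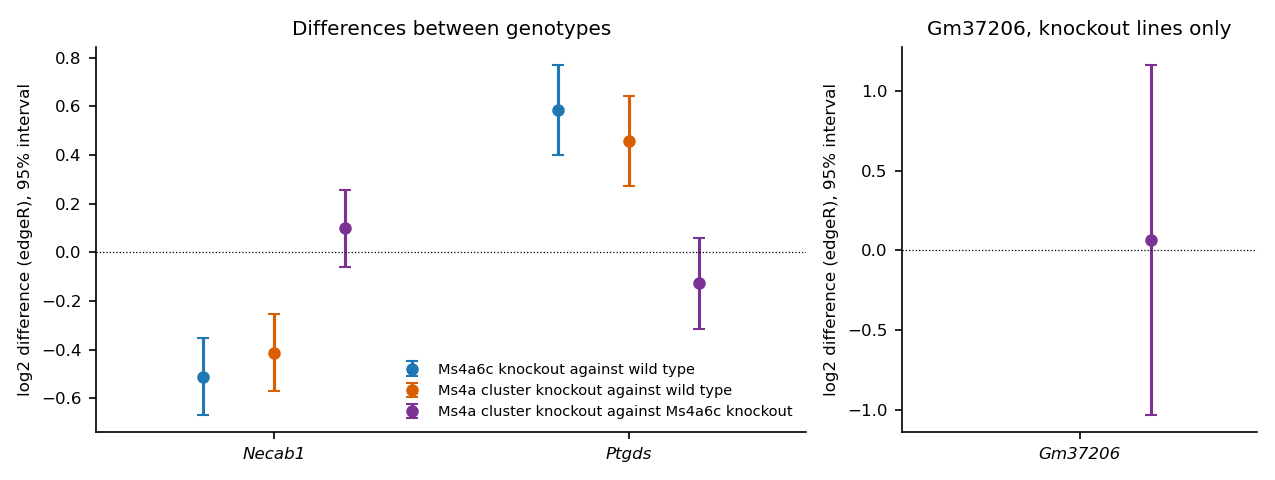
Log2 differences between genotypes with 95% intervals from the edgeR fit (vertical axes) for Necab1 and Ptgds in the 3 comparisons, and for Gm37206 between the knockout lines alone, since a fold against 0 counts has no fixed size. The blue and orange points are descriptions; the purple intervals, the direct comparison of the knockout lines, all include 0.

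Necab2 and Necab3, the other NECAB genes, were expressed at lower levels. Necab2, a partner of G protein-coupled receptors in neurons, was at 4.08 CPM in wild type, 4.15 CPM in the Ms4a6c knockout and 4.07 CPM in the Ms4a cluster knockout. Necab3 was at 7.98 CPM in wild type, with 6.79 CPM in the Ms4a6c knockout and 5.74 CPM in the Ms4a cluster knockout. Its mice were 7.32, 8.77 and 7.85 CPM in wild type and 6.81, 5.28 and 5.11 CPM in the Ms4a cluster knockout, and neither edgeR nor DESeq2 called it (edgeR adjusted p = 0.968). Of the 3 NECAB genes Necab1 was thus the one with a called difference, and it is the one that the choice of members had put there.

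Other calcium-binding proteins of the EF-hand type were not called. The list held 22 sensors and buffers, of which 21 were tested, and edgeR and DESeq2 called 0 of 21 in each of the 3 comparisons. At an unadjusted edgeR p under 0.05 there were 2 in either knockout against wild type and 3 between the knockouts. Over all genes this share was 10.5% in the Ms4a6c knockout, 4.93% in the Ms4a cluster knockout and 9.38% between the knockouts. The same shares stand beside every list count below. Their median log2 difference from wild type was -0.06 in Ms4a6c knockout mice and -0.01 in Ms4a cluster knockout mice, where the median over all genes was -0.002 and 0.007. Calb1, the buffer calbindin, had 23 CPM in wild type and 34.7 CPM in the Ms4a6c knockout without being called by edgeR (adjusted p = 0.281).

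No enzyme that acts before or beside Ptgds was called. Of the 11 other synthesis genes, edgeR and DESeq2 called 0 in each of the 3 comparisons, and 1 had an unadjusted edgeR p under 0.05, between the knockouts. Ptgs1 and Ptgs2, the cyclooxygenases that supply prostaglandin H2, averaged 8.9 and 1.4 CPM in wild type. In the Ms4a6c knockout Ptgs1 was at 10.6 CPM and Ptgs2 at 1.09 CPM, and in the Ms4a cluster knockout they were at 10.6 and 0.983 CPM. Hpgds, the hematopoietic prostaglandin D synthase that makes the same product as Ptgds, was at 4.49, 4.12 and 3.8 CPM in wild type, Ms4a6c knockout and Ms4a cluster knockout. Its 95% interval against wild type reached from -0.5 to 0.24 in the Ms4a6c knockout and from -0.62 to 0.13 in the Ms4a cluster knockout on the log2 scale. Ptges3 and Cbr1 were the most abundant of the list, at 103 and 81.5 CPM in wild type, and their differences from wild type were within 0.12 on the log2 scale.

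Receptors and breakdown genes were likewise not called by edgeR. Of 9 prostanoid receptors 0 were called in any comparison, with 1 at an unadjusted p under 0.05 in the Ms4a6c knockout and 1 between the knockouts. DESeq2 called Ptgfr, the receptor for prostaglandin F2-alpha, in the Ms4a6c knockout alone. Ptgfr had 26.7, 31.1 and 32.1 CPM in wild type, 22.4, 18.8 and 23.1 CPM in the Ms4a6c knockout and 28.4, 33 and 23.5 CPM in the Ms4a cluster knockout. Its log2 difference between the knockouts was 0.39 (SE 0.13, edgeR adjusted p = 0.372). Ptgdr, a receptor for prostaglandin D2, averaged 12.8 CPM in wild type, 13.1 CPM in the Ms4a6c knockout and 12.1 CPM in the Ms4a cluster knockout. Ptgdr2, the other receptor for this ligand, did not exceed 3 counts in any mouse. Of 5 genes for transport and breakdown, edgeR and DESeq2 called 0 in the 3 comparisons, with 1 at an unadjusted edgeR p under 0.05, again between the knockouts. Among them Hpgd, which inactivates prostaglandins, was at 65.8 CPM in wild type and at 61.2 and 65.5 CPM in the Ms4a6c and Ms4a cluster knockouts.

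**Figure D3:**
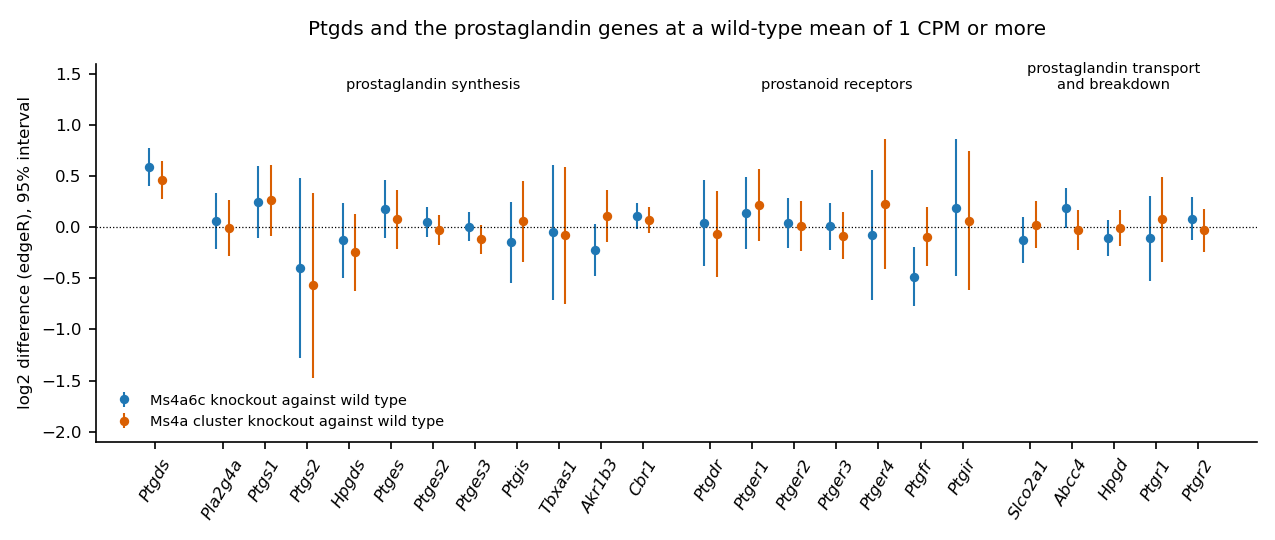
Log2 differences from wild type with 95% intervals (vertical axis, edgeR fit) for Ptgds and for the prostaglandin genes with a wild-type mean of at least 1 CPM, in the Ms4a6c knockout (blue) and the Ms4a cluster knockout (orange). Ptgds was chosen for its difference; of the others, Ptgfr in the Ms4a6c knockout has the one interval that excludes 0.

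Other lipocalins, the fold family of Ptgds, included genes that were highest in the gland-rich libraries. Lcn11 was at 6060 CPM in wild type 1 and 4832 CPM in Ms4a cluster knockout 2, and at most 614 CPM elsewhere. Ptgds itself was at 129 CPM in wild type 1, between the other wild-type mice, and at 194 CPM in Ms4a cluster knockout 2. Apod, a lipocalin of glia and fibroblasts, averaged 482 CPM in wild type, 586 CPM in the Ms4a6c knockout and 533 CPM in the Ms4a cluster knockout and was not called (edgeR adjusted p = 0.442 and 0.971). Of the 12 tested lipocalins edgeR and DESeq2 called 0 in each comparison, with 4 at an unadjusted edgeR p under 0.05 in the Ms4a6c knockout, 2 in the Ms4a cluster knockout and 4 between the knockouts. Over all genes the unadjusted shares were 10.5%, 4.93% and 9.38%, lower than in this list.

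Markers of the cells that are known for Ptgds were set beside it. The 11 tested markers of ensheathing and Schwann glia summed to between 342 and 426 CPM in wild type, between 356 and 431 CPM in the Ms4a6c knockout and between 370 and 487 CPM in the Ms4a cluster knockout, with the highest in Ms4a cluster knockout 2. edgeR called 0 of the 11 in each comparison, and at an unadjusted p under 0.05 there were 1 in the Ms4a6c knockout, 2 in the Ms4a cluster knockout and 0 between the knockouts. Frzb, a secreted Wnt antagonist of ensheathing glia, was at 5.26, 6.71 and 4.55 CPM in wild type, 14.8, 12 and 8.09 CPM in the Ms4a6c knockout and 7.36, 15.9 and 7.92 CPM in the Ms4a cluster knockout. All 6 knockout mice lay above all wild-type mice for Frzb, as in 1.68% of all tested genes. Frzb was called by DESeq2 in the Ms4a6c knockout (adjusted p = 0.0434) but not by edgeR (adjusted p = 0.247). Sox10, the transcription factor of these glia, averaged 31, 29.3 and 33.1 CPM in wild type, Ms4a6c knockout and Ms4a cluster knockout.

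Leptomeninges and fibroblasts, other known sources of Ptgds, were read from 12 genes. These summed to between 3228 and 7416 CPM in wild type, between 3035 and 4275 CPM in the Ms4a6c knockout and between 4374 and 4800 CPM in the Ms4a cluster knockout, which is mostly collagen. edgeR called 0 of 12 in each comparison, with 4 at an unadjusted p under 0.05 in the Ms4a6c knockout, 0 in the Ms4a cluster knockout and 3 between the knockouts. Over all genes the unadjusted shares were 10.5%, 4.93% and 9.38%. This list was above them in the Ms4a6c knockout and between the knockouts. DESeq2 called Lum, a matrix proteoglycan, as lower in the Ms4a6c knockout than in wild type (adjusted p = 0.0297) and than in the Ms4a cluster knockout (adjusted p = 0.00214). Slc47a1, a transporter of leptomeningeal cells, averaged 5.64 CPM in wild type, 6.4 CPM in the Ms4a6c knockout and 5.95 CPM in the Ms4a cluster knockout. In the same order Slc6a13 averaged 2.01, 2.47 and 2.52 CPM and Slc22a6 1.31, 1.7 and 1.8 CPM. Slc13a4 averaged 1.68, 1.76 and 2.2 CPM and Aldh1a2 49.2, 58.2 and 54 CPM. These means, and that of Pdgfra, were higher in both knockouts, as for Ptgds. Igfbp2, Foxc1, Dcn, Lum, Col1a1 and Col1a2 had lower means in the Ms4a6c knockout than in wild type. No gene of these 2 lists was at or under 3 counts in all mice. Oligodendrocyte markers, 5 tested, summed to between 47.9 and 66.7 CPM over all mice, mostly through Cldn11, and none was called by edgeR, by DESeq2 or at an unadjusted p under 0.05. Mog, the defining myelin marker of these cells, was at 0 in 5 mice and at most 0.398 CPM in the others.

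**Figure D4:**
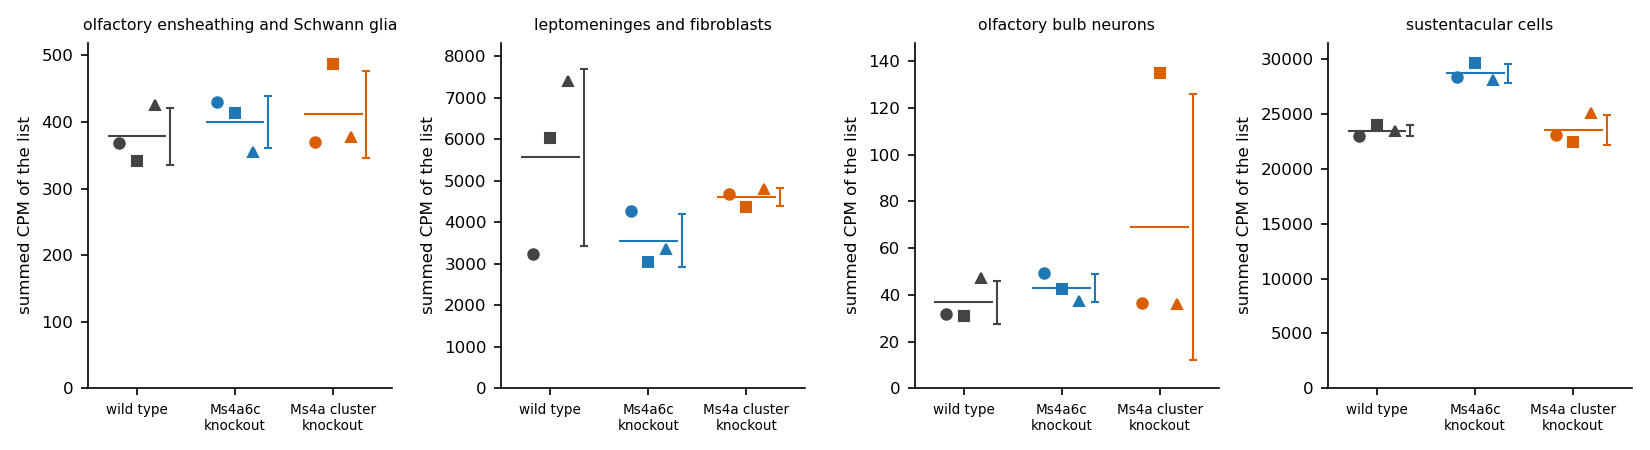
Summed CPM (vertical axes, from 0) of 4 marker lists in each mouse by genotype, with group means as lines and 1 SD as bars. Glia overlap between the genotypes, olfactory bulb neurons stand out in Ms4a cluster knockout 2 at 134.9 CPM, and sustentacular markers in the Ms4a6c knockout lie above the other genotypes.

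Neuronal and supporting cell markers were set beside Necab1. The 10 markers of mature olfactory sensory neurons summed to between 12450 and 14320 CPM in wild type, between 13610 and 14230 CPM in the Ms4a6c knockout and between 11340 and 14280 CPM in the Ms4a cluster knockout. edgeR and DESeq2 called 1 of them, Gng13, a G protein gamma subunit, lower in the Ms4a6c knockout and higher in the Ms4a cluster knockout than in the Ms4a6c knockout. The immature neuron markers, 5 in all, had 0 calls by edgeR, by DESeq2 and at an unadjusted p under 0.05. The 10 olfactory bulb markers had 0 calls by edgeR and by DESeq2, and 1 unadjusted p under 0.05 in Ms4a cluster knockout mice. Necab1 was at 51.6 CPM in Ms4a cluster knockout 2, where these markers summed to 134.9 CPM, and at 58.1 and 53.6 CPM in its mates, where they summed to between 36.2 and 36.5 CPM.

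The 6 sustentacular markers, of the supporting cells of the epithelium, summed to between 23020 and 24010 CPM in wild type, 28070 and 29630 CPM in the Ms4a6c knockout and 22420 and 25080 CPM in the Ms4a cluster knockout. edgeR called 0 of 6, with 4 at an unadjusted p under 0.05 in the Ms4a6c knockout, 1 in the Ms4a cluster knockout and 2 between the knockouts. Over all genes the unadjusted shares were 10.5%, 4.93% and 9.38%, lower than in this list. DESeq2 called 4 in the Ms4a6c knockout, 3 of them higher, and 4 between the knockouts, beside 1.95% and 1.3% of all genes. All 3 Ms4a6c knockout mice lay above every other mouse in the sustentacular sum. The part of cell composition in the member differences was not tested.

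Gland and clock genes gave few calls after adjustment. The 8 nasal gland markers had 0 calls by edgeR in the 3 comparisons and 1 by DESeq2, between the knockouts, with 2, 0 and 1 at an unadjusted p under 0.05 in the Ms4a6c knockout, the Ms4a cluster knockout and between them. Their sum was 14980 CPM in wild type 1 and 14100 CPM in Ms4a cluster knockout 2, the lowest of either genotype. The name gland-rich for these libraries thus does not hold for this list. The 11 clock genes, which would follow the hour of dissection, had 0 calls by edgeR and DESeq2, with 4 at an unadjusted p under 0.05 in the Ms4a6c knockout, 0 in the Ms4a cluster knockout and 4 between them. Over all genes the unadjusted shares were 10.5%, 4.93% and 9.38%. Both lists were above them in the Ms4a6c knockout and between the knockouts. Per1 was at 58, 45.8 and 54.2 CPM and Per2 at 53.8, 63.2 and 55.9 CPM in wild type, Ms4a6c knockout and Ms4a cluster knockout. The 5 sex genes were not called by edgeR, DESeq2 or at an unadjusted p under 0.05 in any comparison.

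Gm37206 shares its whole locus with other genes. All 3069 bases of its exon lie opposite exons of Rbm4b, an RNA-binding protein gene on the plus strand at chr19:4756497-4767065. An intron-retaining transcript of Rbm4b covers all of them, and its protein-coding transcripts cover 774 bases, or 25.2%. Gm37206 also lies between exons of Gm21992, a minus-strand gene at chr19:4742913-4811612. The libraries kept the strand, but the strand setting of the counting is not given in the sources used here, so that reads of Gm37206 and of the Rbm4b strand cannot be told apart.

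Rbm4b was similar in all genotypes. It had 35.6, 33.7 and 33.3 CPM in wild-type mice 1 to 3, 32.7, 35.1 and 39.6 CPM in the Ms4a6c knockout mice and 32.8, 30.7 and 33.9 CPM in the Ms4a cluster knockout mice. Its log2 difference from wild type was 0.06 (SE 0.08) in Ms4a6c knockout mice and -0.07 (SE 0.081) in Ms4a cluster knockout mice (edgeR adjusted p = 0.826 and 0.993). With the Gm37206 counts added to it, an alternative chosen after seeing the data, these became 0.1 and -0.03 and were still not called. Of the counts of both genes together, Gm37206 held 1.48%, 3.9% and 2.82% in Ms4a6c knockout mice 1 to 3 and 3.39%, 4.05% and 2.17% in Ms4a cluster knockout mice 1 to 3. The exact Clopper-Pearson 95% intervals of these shares lay between 0.768% and 6.83%. In the wild-type mice 0 of 501, 0 of 608 and 0 of 586 counts were assigned to Gm37206, which allows a share of up to 0.599%, 0.493% and 0.512% by the limit of 3 counts. The upper ends of their Clopper-Pearson intervals were 0.734%, 0.605% and 0.628%. These limits and intervals cover counting error only, and they rest on rounded expected counts. The interval of every knockout mouse lay above those of the wild-type mice. Gm37206 was chosen for its difference from wild type, so this separation is a description and nothing is read from it.

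**Figure D5:**
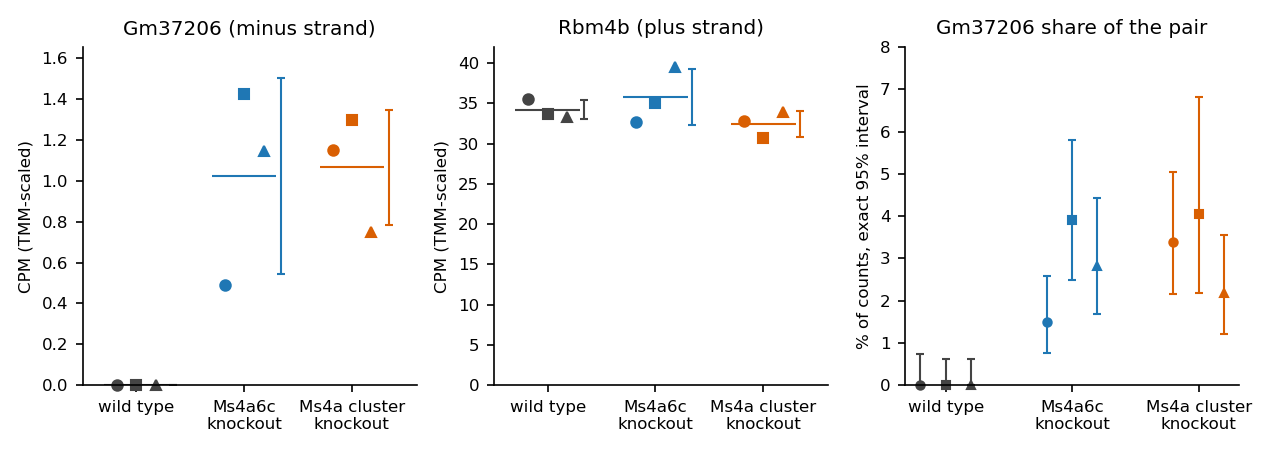
Levels of Gm37206 and of Rbm4b on the opposite strand (vertical axes, TMM-scaled CPM, from 0; lines are means and bars 1 SD) and the share of Gm37206 in the counts of both genes (percent, exact 95% intervals) in each mouse. Rbm4b overlaps between all genotypes near 30 to 40 CPM, while the share is 0 in the wild type and between 1.48% and 4.05% in the knockouts.

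Of the other genes around Gm37206, those that overlap or adjoin it were not called. Gm21992 was at 6.01 CPM in wild type, 6.27 CPM in the Ms4a6c knockout and 6.72 CPM in the Ms4a cluster knockout, and Rbm4, the nearest gene above it at 19.1 kb, was at 52.3, 48.8 and 53.4 CPM. Among the 20 tested genes closest to Gm37206, 10 to either side, edgeR and DESeq2 called 0 in each comparison, with 1 at an unadjusted p under 0.05 in each. Over all genes the unadjusted shares were 10.5% in the Ms4a6c knockout, 4.93% in the Ms4a cluster knockout and 9.38% between the knockouts. With 20 to either side, edgeR called 0 of 40 in each comparison, with 3 at an unadjusted p under 0.05 for Ms4a6c knockout mice, 2 for Ms4a cluster knockout mice and 1 between the knockouts, and DESeq2 called 1, Gm50388 in the Ms4a cluster knockout. Gm50388, named above as just outside the threshold of both lines, lies at chr19:5038891-5049912, or 0.274 Mb from Gm37206. It was at 0.569, 0.499 and 0.512 CPM in wild-type mice 1 to 3, at 4.02, 1.68 and 0.573 CPM in the Ms4a6c knockout mice and at 4.21, 1.79 and 3.61 CPM in the Ms4a cluster knockout mice. All knockout mice thus lay above wild type, as for Gm37206 and in 1.68% of all tested genes, with Ms4a6c knockout 3 next to the highest wild-type mouse. Its DESeq2 adjusted p was 0.0464 in the Ms4a cluster knockout and 0.0722 in the Ms4a6c knockout, and edgeR gave 0.922 and 0.275. Of the 234 tested genes between Gm37206 and the first Ms4a gene, edgeR called 1 in the Ms4a6c knockout, 0 in the Ms4a cluster knockout and 1 between the knockouts, and DESeq2 called 2, 1 and 1. Both edgeR calls were Pcna-ps2, a pseudogene 4.52 Mb from Gm37206 that can share reads with Pcna, at 1.15 CPM in wild type, 7.92 CPM in the Ms4a6c knockout and 0.817 CPM in the Ms4a cluster knockout. DESeq2 also called Stip1, which encodes a cochaperone, in the Ms4a6c knockout and Gm50388 in the Ms4a cluster knockout. Pcna-ps2, Stip1 and Gm50388 were named after their values were seen. At an unadjusted edgeR p under 0.05 they were 9.83% in Ms4a6c knockout mice and 7.69% in Ms4a cluster knockout mice, beside 10.5% and 4.93% of all genes. The Ms4a cluster knockout share is above that of all genes and the Ms4a6c knockout share is below it.

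A wild-type level of 0 with counts in every knockout mouse was looked for over all tested genes. Such genes pass the filter only through the knockout mice. The same pattern was not counted for other sets of mice, so how unusual it is cannot be told. Besides Gm37206, 1 tested gene had 0 counts in all wild-type mice and more than 3 in all 6 knockout mice, Gm44170 on chromosome 6, a gene named after its values were seen. It had 7.87, 15.44 and 7.84 expected counts in the Ms4a6c knockout and 19.03, 6.88 and 6.3 in the Ms4a cluster knockout.

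Around Necab1, the antisense gene Gm11837 at chr4:14929908-14953030 overlaps 410 bases of its exons, or 7.83%. Gm11837 was at 3.48, 6.05 and 4.44 CPM in wild type, 3.4, 3.66 and 2.74 CPM in the Ms4a6c knockout and 3.71, 2.39 and 3.51 CPM in the Ms4a cluster knockout. Its log2 difference from wild type was -0.51 (SE 0.24) and -0.52 (SE 0.25), the groups overlapped, and it was not called (edgeR adjusted p = 0.499 and 0.968). Reads of the shared bases cannot be assigned to a strand here, and Gm11837 is far less abundant than Necab1. A second similar sequence was an intron-retaining transcript of Elmod2, with 90.2% identity over 102 bases on the same strand. Elmod2 was at 29, 30.5 and 27.9 CPM in wild type, Ms4a6c knockout and Ms4a cluster knockout and was not called.

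The closest chromosomal neighbors of Necab1 and Ptgds were not called. Pip4p2, a phosphoinositide phosphatase gene 37.1 kb below Necab1, was at 35.9, 35.5 and 35.1 CPM in wild type, Ms4a6c knockout and Ms4a cluster knockout. Tmem64, 116 kb above, was at 212, 225 and 186 CPM. Ptgds overlapped no other tested gene, and no other transcript was similar to it by the limits used. Paxx, a DNA repair gene 5.62 kb below Ptgds, was at 25.9, 30.2 and 28.9 CPM, with an unadjusted edgeR p of 0.0374 in the Ms4a6c knockout against wild type. The lipocalin gene Lcn12, 20.8 kb above, had at most 3 counts in every mouse. Among the 20 nearest tested genes of either, edgeR and DESeq2 called 0 in each comparison. At an unadjusted edgeR p under 0.05 there were 3 around Necab1 and 3 around Ptgds for the Ms4a6c knockout, 2 and 1 for the Ms4a cluster knockout, and 2 and 4 between these lines. Over all genes the shares for these comparisons were 10.5%, 4.93% and 9.38%, and each of these counts of 20 stands at or above them. With 20 tested genes to either side edgeR still called 0, and DESeq2 called 1 around Necab1, Atp6v0d2 at 4.73 Mb, in the Ms4a6c knockout (13.9 CPM against 20.5 CPM in wild type, adjusted p = 0.0494), and 0 around Ptgds.

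The genes whose profile over the 9 mice was nearest to each member were listed by the root mean square difference of centered log2(CPM + 0.5), among 18024 genes with a mean of at least 0.5 CPM. For Necab1 they were Ermn (0.0895), Zfhx3 (0.0957), Mob3b (0.104), Lox (0.105) and Prkch (0.105), while the spread of Necab1 itself was 0.23 on this scale. Ermn, which links the cell membrane to actin and stands in the sustentacular list used here, had 151 CPM in wild type, 114 CPM in the Ms4a6c knockout and 120 CPM in the Ms4a cluster knockout. It was called by DESeq2 in the Ms4a6c knockout (adjusted p = 0.0113) and not by edgeR in any comparison. The other sustentacular genes all had higher means in the Ms4a6c knockout than in wild type, such as Cyp2a5 at 12200 against 9171 CPM. Ermn was thus the lone gene of that list with a lower mean there. Lox, which crosslinks collagen, had 45 CPM in wild type, 30.2 CPM in the Ms4a6c knockout and 37.4 CPM in the Ms4a cluster knockout.

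Among the nearest to Ptgds were Gm9625 (0.0988), Apobec3 (0.117), Cmtm5 (0.117) and H3c15 (0.126), against a spread of 0.27 for Ptgds itself. Apobec3, a cytidine deaminase that restricts retroviruses, was at 17 CPM in wild type, 21.8 CPM in the Ms4a6c knockout and 20.9 CPM in the Ms4a cluster knockout, and Cmtm5 was at 5.36, 7.95 and 7.42 CPM.

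For Gm37206 the distances were larger, from 0.412 for Igkv10-96, an immunoglobulin light chain segment, through 0.442 for Hk3 and 0.48 for Olfr18 to 0.496 for Gm5796 and 0.498 for Rpl38-ps2, against a spread of 0.8 for Gm37206 itself. None of the genes named here as nearest to a member lies on chromosome 19.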

How the data were processed

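Paired-end, directional poly-A libraries had been aligned by the authors with STAR 2.6.1 and quantified with RSEM 1.3.1 on GENCODE M25 (mm10, that is GRCm38), per the labels and the study's methods. The authors deposited RSEM's expected counts per gene, not normalized, and used DESeq2 1.30.1 in R 4.0.0 for their own comparison.

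Expected counts were rounded. The 23225 genes whose counts over all mice summed to 10 or more were scaled by TMM and tested in one model of 3 genotypes by quasi-likelihood (edgeR 4.0.16, R 4.3.3), with Benjamini-Hochberg adjustment over all genes and a threshold of 0.05. DESeq2 1.42.0 was an alternative. Standard errors are the log2 difference divided by the square root of F, and 95% intervals use the fit's degrees of freedom. Counts of 23225 genes were simulated from the means and spread of all mice, with changes planted in the Ms4a6c knockout group. There edgeR called 165 of 200 changed genes, 94 of 100 with a 4-fold change, and 10 unchanged genes. All planted changes were larger than those of Necab1 and Ptgds, in genes of a higher mean CPM than Gm37206. The recovery is thus no rate for differences like those of the members. Depth was between 13954591 and 21987174 expected counts, and 3 counts was the smallest amount told from 0. Reads carried no molecular identifiers. The 3 mice of a genotype are given as biological replicates.

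Gene positions are those of GENCODE M21 on GRCm38, and 99.6% of the deposited genes were matched to it by transcript. Similar transcripts were sought with blast 2.17.0 at 90% identity over 100 bases. Figures used Python 3.11.15 with matplotlib 3.10.9, and intervals scipy 1.17.1.

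The 3 genes and all gene lists were chosen with earlier results of these data known, and comparisons of the members with wild type are descriptions for that reason. Genes named were the members, list genes past the threshold or highest in CPM, the 5 genes nearest in profile to each member, overlapping and adjacent genes, and similar transcripts; genes named outside this rule (Bpifb9b, those called by DESeq2 in both lines or next to that threshold, Gm44170, called genes farther along the chromosome, and some list genes such as Ptgs1, Frzb or Per1) were chosen for their role or after their values were seen. Some genes that the rule names are not reported here. Alternatives were no filter, edgeR's default filter, DESeq2, its size factors alone, 2 genotypes alone, Xist as a covariate, the replicate block, a threshold of 0.01, and leaving out each mouse. Leaving out both gland-rich libraries and adding Gm37206 to Rbm4b were chosen after seeing the data.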

Additional observations from a re-analysis of the deposited data

Results flagged for a closer look

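Gng13, a G protein gamma subunit of the mature olfactory sensory neuron list, differed between the knockout lines. It was at 359 CPM in wild type, 193 CPM in the Ms4a6c knockout and 373 CPM in the Ms4a cluster knockout, and its log2 difference, Ms4a cluster knockout minus Ms4a6c knockout, was 0.95 (SE 0.091, edgeR adjusted p = 7.30e-04), with all 3 Ms4a cluster knockout mice above all 3 Ms4a6c knockout mice. It was the one gene among the members, the lists and the overlapping or adjacent genes for which edgeR called the direct comparison of the lines. Among the tested genes between Gm37206 and the first Ms4a gene there was 1 more, the pseudogene Pcna-ps2, with a log2 difference of -3.26 (SE 0.22, edgeR adjusted p = 5.82e-05) and all 3 Ms4a6c knockout mice above all 3 Ms4a cluster knockout mice. Over all tested genes the mice of the knockout lines did not overlap in 16.0%.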

How the results depend on the processing

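The sign of the Necab1 and Ptgds differences held in every alternative. Against wild type the choice of these genes had all but fixed it, so this is no test of the differences. Necab1 lay between -0.46 and -0.38 and Ptgds between 0.39 and 0.54 against wild type in the Ms4a cluster knockout with 1 mouse left out, and Gm37206 between 7.09 and 7.38. In the Ms4a6c knockout these ranges were -0.56 to -0.47, 0.52 to 0.67 and 6.81 to 7.41. The fitted values of Gm37206 against a wild type at 0 depend on the prior count and give neither a size nor a bound. Calls were gained in the Ms4a cluster knockout with DESeq2, for Necab1 (-0.42), Ptgds (0.45) and Gm37206 (6.56), and without a filter for Gm37206 (7.2). Calls were lost in the Ms4a6c knockout for Gm37206 with 2 genotypes alone (7.16) or Xist as a covariate (6.97). The log2 difference of Gm37206 between the knockouts lay between -0.29 and 0.40 with 1 mouse left out, below 0 without Ms4a6c knockout 1, Ms4a cluster knockout 1 or Ms4a cluster knockout 2, and at -0.071 without both gland-rich libraries, and was not called in any of these. Rbm4b in the Ms4a6c knockout lay between -0.014 and 0.13, below 0 without Ms4a6c knockout 3.

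Counts of called genes moved more. In the Ms4a cluster knockout 6 genes were called, and 3 at an adjusted p under 0.01, 18 with DESeq2 and between 3 and 7 with 1 mouse left out. In the Ms4a6c knockout 101 were called, and 58 at 0.01, 182 without a filter, 345 with DESeq2, 350 without both gland-rich libraries and between 59 and 143 with 1 mouse left out. Between the knockouts the count was 103, and 60 at 0.01, 155 without a filter, 271 with DESeq2 and between 66 and 97 with 1 mouse left out. The causes were not tested.

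Same-numbered mice did not deviate together: over 16537 genes their mean correlation was -0.381 between the Ms4a cluster knockout and wild type, -0.03 between the Ms4a6c knockout and wild type and 0.014 between the knockouts, so that the numbers were taken as names. With the replicate block the calls were 2, 71 and 75 in these comparisons, and in the Ms4a6c knockout Necab1 (-0.51) and Gm37206 (7.13) were no longer called. For Gm37206 the depth sets the limit, since every mouse had fewer than 23 counts.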
